A study of Danio rerio with 52 samples.

Results

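The 6 genes described here are TSPAN1, anos1a, fat1b, aplnra and ucp1, which were picked for their high levels in mantle cells of the zebrafish lateral line, and alpl, the gene that the mCherry reporter line is named after. They were taken by symbol from the probe-to-gene table of the array, all 6 were found, and they are 6 of the 19260 genes tested. Of the 6, 5 have a single probe set. For aplnra, which has a second one, the probe set with the higher mean was used. The first 5 genes were chosen by how strongly they mark mantle sorts against non-fluorescent cells, with earlier results of all arrays known. The rule does not say whether copper-treated sorts counted, so for these 5 genes every difference between mantle and non-fluorescent cells, and every difference from an untreated group, is a description with no test. Tests of them are given for changes between times after copper, and of alpl throughout. If treated sorts counted, a fall from the 1 h mantle level was favoured by the choice too. The tests of these 5 genes against 1 h are given with that limit.

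The lateral line is the sensory system with which fish detect water movement. Its organs, the neuromasts, lie in the skin and hold mechanosensory hair cells, support cells below and between them, and mantle cells that form the outer rim. Copper ions kill lateral line hair cells, which zebrafish larvae then replace from the remaining cells of the organ. All samples came from skins of larvae at 4 days, with about 50 skins in a sample, and cells were sorted by fluorescence. Of the untreated populations, mCherry+/GFP+ mantle cells (n = 4) came from alpl:mCherry;Et20 larvae, in which the labels give GFP to most mantle cells and mCherry to all of them. GFP+ hair cells (n = 2) came from alpl:mCherry;pou4f3:GFP larvae, where GFP marks hair cells and mCherry mantle cells. For mCherry+ mantle cells (n = 5) and non-fluorescent cells (NF, n = 6) the labels do not give the line of each sample. Treated larvae received 5 µM CuSO4 for 1 h, and mCherry+ mantle cells were collected at 1, 3, 5 and 11 h after it (n = 4 each), as were NF cells (n = 7 at 1 h, n = 4 at each other time). The labels do not say what sequence drives mCherry, and cells of several sorts were pooled for the hair cell and mCherry+/GFP+ samples, which can narrow their spread.

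Not every one of these genes encodes a protein of the cell surface. TSPAN1 is a tetraspanin, a membrane-spanning protein of a family that gathers receptors and adhesion molecules into clusters. Anosmin, the product of anos1a, is secreted, binds heparan sulphate and can modulate Fgf receptor signalling, and in zebrafish it is known for its role in the migrating lateral line primordium. The fat1b gene encodes an atypical cadherin of the Fat family, whose members act in cell contact and planar polarity. The G-protein-coupled receptor made from aplnra binds the peptides apelin and Apela. The product of ucp1 is a proton carrier of the inner mitochondrial membrane, and that of alpl is an alkaline phosphatase anchored to the outside of the cell, which splits pyrophosphate.

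The values are log2 levels of 52 arrays, with the median of the tested genes set equal in every array, and their number limits the precision. Before that step the 16 treated mantle arrays had medians of 4.64 to 4.81, the 19 treated NF arrays 4.88 to 5.14 and the 17 arrays without copper 4.67 to 4.92. The copper analysis was imported separately by the submitters, so treatment and import cannot be told apart. Setting the medians equal moved the median difference of all genes between mantle and NF cells after copper by 0.239 to 0.320, and between treated and untreated NF cells by -0.102 to -0.197. In the arrays of 3 h and 5 h, the deviation of replicate 4 from its group mean at one time was the mirror image of that at the other (r = -1 over 75212 probe sets, which are not independent, in both populations), so an earlier adjustment ties these arrays together. Which adjustment was made is not given in the sources used here. A fit with a block for replicates 1 to 3 of both times was therefore run beside each test, and its adjusted p is given wherever it changes a call. The mirror image holds the estimate of that block near 0. Differences among treated arrays at 3 h and 5 h therefore stay nearly the same with it, while their SE becomes larger. That the values stay the same with the block is thus no check of them.

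The sorted populations carried the markers of their names to different degrees. The mean of 18 neuromast support and mantle genes was 7.90 to 8.60 in mCherry+/GFP+ arrays, 6.78 to 7.02 in untreated mCherry+ arrays and 5.63 to 5.97 in untreated NF arrays. It was 6.70 and 6.76 in the hair cell arrays, so this list hardly set mCherry+ cells apart from hair cells. Hair cell genes (19 measured) averaged 8.73 and 8.75 in the hair cell arrays, against 4.28 to 4.58 in untreated mCherry+ arrays. The connective tissue list (20 genes), however, averaged 8.89 to 9.24 in untreated mCherry+ arrays and 8.33 to 8.83 in NF arrays, against 6.48 to 7.57 in mCherry+/GFP+ arrays. Genes of that list were thus not low in the cells sorted for mCherry alone. Keratinocyte genes (16 measured) averaged 8.52 to 9.69 in untreated NF arrays and 5.85 to 6.67 in untreated mCherry+ arrays. In mCherry+/GFP+ arrays they averaged 7.23 to 8.03, and in hair cell arrays 7.72 and 7.69.

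TSPAN1 had levels of 9.48, 10.52, 10.02 and 9.14 in the mCherry+/GFP+ arrays. It had 6.33, 6.50, 4.50, 7.06 and 6.96 in untreated mCherry+ arrays, against a lowest, median and highest level of 1.89, 2.47 and 3.94 in NF arrays. The hair cell arrays had 2.59 and 3.01. All mantle arrays lay above all NF and hair cell arrays, and the double-positive arrays above all those of mCherry+ cells. The share of all genes whose ranges are apart was not counted. Here and below, ranges that do not meet therefore only describe these genes, and their choice favours such ranges for all but alpl. The difference from NF cells was 7.20 ± 0.45 (log2 ± SE) in mCherry+/GFP+ cells and 3.68 ± 0.42 in mCherry+ cells.

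The level of anos1a was 10.93, 11.02, 11.20 and 10.99 in mCherry+/GFP+ arrays, the narrowest spread among the levels of the 6 genes in that group (SD 0.118). It was 8.98, 8.81, 8.96, 7.95 and 9.30 in mCherry+ arrays, against 3.47, 3.73 and 4.50 (lowest, median, highest) in NF arrays. Hair cells, at 4.84 and 4.43, were near NF cells. For fat1b, mCherry+/GFP+ arrays had 9.83, 9.79, 10.33 and 10.12, and mCherry+ arrays had 7.88, 8.06, 7.25, 7.14 and 8.19. In NF arrays fat1b ranged from 2.98 over a median of 3.46 to 3.95, and the hair cell arrays had 4.08 and 4.17. In both genes the double-positive, mCherry+ and NF arrays formed 3 ranges that did not meet. Differences from NF cells were 7.13 ± 0.25 in mCherry+/GFP+ cells and 4.89 ± 0.23 in mCherry+ cells for anos1a, and 6.58 ± 0.22 and 4.27 ± 0.21, in the same order, for fat1b.

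The other 2 chosen genes had the reverse order of the mantle populations. The apelin receptor gene aplnra was at 6.58, 7.0, 5.16 and 5.90 in mCherry+/GFP+ arrays and at 8.88, 8.69, 9.45, 9.48 and 10.93 in mCherry+ arrays. In NF arrays its lowest, median and highest levels were 2.80, 4.01 and 5.09, and the hair cell arrays had 3.84 and 1.66. Likewise ucp1 had 7.67, 8.35, 6.24 and 8.06 in mCherry+/GFP+ arrays, below 10.09, 10.08, 9.84, 10.09 and 10.31 in mCherry+ arrays. Its NF levels were 4.41, 4.87 and 5.66 (lowest, median, highest), and hair cells had 4.07 and 3.95.

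With the probe sets used, both mantle populations lay above all NF arrays in aplnra and ucp1, but without any overlap the double-positive arrays were below those of mCherry+ cells. The second probe set of aplnra had 3.28 to 4.56 in mCherry+/GFP+ arrays, overlapping 2.95 to 4.08 in NF arrays. In mCherry+ arrays it had 4.94 to 6.49. With both probe sets averaged, mCherry+/GFP+ and mCherry+ cells differed from NF cells by 1.26 and 3.91, against 2.15 and 5.47 with the probe set used. Set directly against mCherry+ cells, the mCherry+/GFP+ cells differed by 3.52 ± 0.47 in TSPAN1, 2.24 ± 0.25 in anos1a and 2.31 ± 0.23 in fat1b, against -3.33 ± 0.55 in aplnra and -2.51 ± 0.34 in ucp1. These arrays chose the genes, so the 5 values carry no test. With the same contrasts, 31.3% of all genes were called between mCherry+/GFP+ and NF cells, 37.0% between mCherry+ and NF cells, and 26.3% between the mantle populations, a call being an adjusted p below 0.05 in limma. On the deposited scale higher genes made up 44.6% of the calls of mCherry+/GFP+ against NF cells and 46.8% of those of mCherry+ against NF cells, against 56.7% and 65.6% with the medians set equal.

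Markers of other cell types differed between the mantle populations in both directions. Of the 20 connective tissue genes, 19 were lower in mCherry+/GFP+ than in mCherry+ cells and 0 higher, with a median of -1.76 against -0.10 over all genes. Among 16 keratinocyte genes 10 were higher and 0 lower (median 1.20), and among 18 genes of neuromast support and mantle cells 14 were higher and 2 lower (median 1.82). Connective tissue genes thus lay on the side of aplnra and ucp1, and neuromast and keratinocyte genes on the side of TSPAN1, anos1a and fat1b. The part of these markers in the levels of the 6 genes was not tested. In such sorted samples, fewer cells of a type and less RNA per cell cannot be told apart.

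The reporter's namesake alpl varied far less. Its levels were 7.88, 7.30, 7.92 and 7.51 in mCherry+/GFP+ arrays, 6.65, 6.64, 6.45, 7.13 and 7.22 in mCherry+ arrays, and 6.96 and 6.61 in hair cells, against 5.98, 6.36 and 6.50 (lowest, median, highest) in NF arrays. The double-positive arrays were above all others of the untreated set, while the lowest mCherry+ array (6.45) was below the highest NF array (6.50). The gene was not taken for its values and was tested in limma over all genes. Cells were sorted by mCherry, however, and the labels do not say what drives it. If it follows alpl, the sorting itself favours a higher alpl level in mantle than in NF cells. It was higher in mCherry+/GFP+ than in NF cells, by 1.36 ± 0.18 (adjusted p = 1.1e-05), and higher than in mCherry+ cells, by 0.84 ± 0.18 (adjusted p = 0.00253). Between mCherry+ and NF cells the difference was 0.52 ± 0.17 (adjusted p = 0.0203). That call was lost on the deposited values, where the difference was 0.37 (adjusted p = 0.105), and with all 52 arrays in the fit (adjusted p = 0.13). It was also lost without replicate 4 of the mCherry+ cells (0.44, adjusted p = 0.0607) and without their replicate 5 (0.42, adjusted p = 0.0638).

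**Figure D1:**
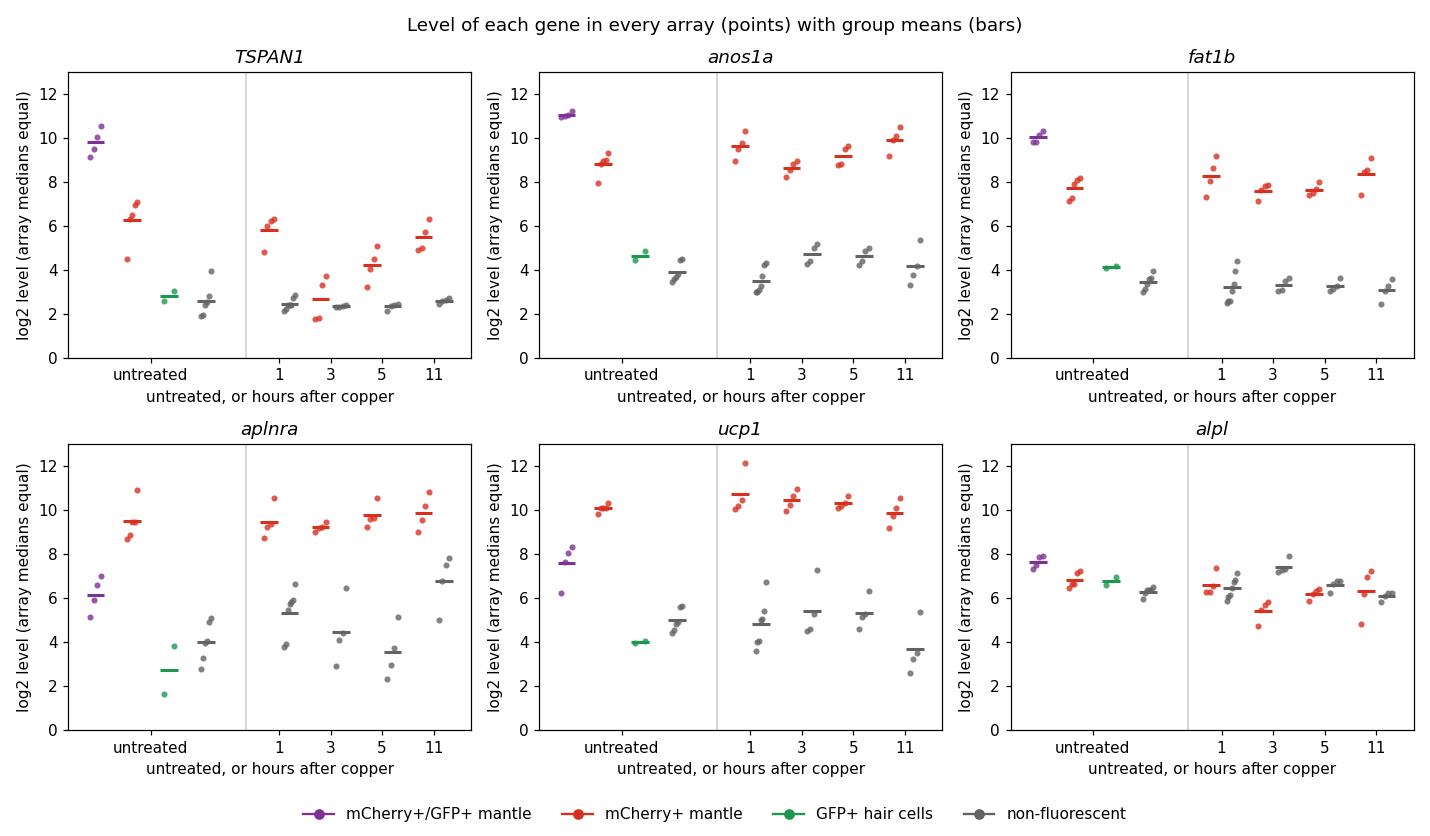
Level of each of the 6 genes (log2, array medians equal) in every array (points) with group means (bars), for the untreated populations and at 1, 3, 5 and 11 h after copper. TSPAN1 in mCherry+ mantle arrays lies between 1.77 and 3.73 at 3 h, on both sides of the NF arrays of that time, while anos1a, fat1b, aplnra and ucp1 stay above every NF array at all 4 times. The choice of these genes favours this, and the share of all genes with ranges apart was not counted.

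The copper-treated arrays asked whether the genes still set mantle cells apart from NF cells after hair cells were killed. At 1 h, 5 of the 6 genes passed the threshold as higher in mCherry+ mantle cells than in NF cells, where 25.8% of all genes did. At 3 h it was 4 higher (19.1% of all genes) and 1 lower (11.2% of all genes), at 5 h 5 higher (19.8%) and at 11 h 5 higher (16.6%). The choice of the genes favours these counts, and nothing is read from them. On the deposited scale the higher share of the calls of all genes was 33.9% to 36.6% at the 4 times, against 60.5% to 70.1% with the medians set equal.

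In anos1a and fat1b the populations were apart at every time. In mantle arrays anos1a had 9.49, 9.74, 8.94 and 10.30 at 1 h, 8.55, 8.81, 8.95 and 8.22 at 3 h, 8.75, 9.48, 8.80 and 9.65 at 5 h, and 9.17, 10.10, 9.91 and 10.49 at 11 h. No treated NF array exceeded 5.34, so the populations were apart in every array. The difference between mantle and NF cells was 6.11 ± 0.33 at 1 h, 3.93 ± 0.37 at 3 h, 4.56 ± 0.37 at 5 h and 5.76 ± 0.37 at 11 h (log2 ± SE).

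For fat1b, the mantle arrays ranged from 7.29 to 9.18 at 1 h, 7.11 to 7.84 at 3 h, 7.40 to 7.97 at 5 h and 7.40 to 9.09 at 11 h, while treated NF arrays lay between 2.43 and 4.41. Its differences between mantle and NF cells were 5.09 ± 0.33, 4.28 ± 0.38, 4.36 ± 0.38 and 5.30 ± 0.38 at 1, 3, 5 and 11 h.

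In aplnra and ucp1 every treated mantle array lay above every treated NF array. In mantle arrays aplnra had 9.39, 8.73, 9.23 and 10.56 at 1 h, 9.26, 9.20, 9.03 and 9.48 at 3 h, 10.54, 9.66, 9.26 and 9.60 at 5 h, and 9.02, 10.19, 9.53 and 10.82 at 11 h. In NF arrays it ranged from 3.76 to 6.66 at 1 h, 2.94 to 6.45 at 3 h, 2.31 to 5.12 at 5 h and 5.02 to 7.82 at 11 h. The differences between mantle and NF cells were 4.16 ± 0.59, 4.77 ± 0.66, 6.23 ± 0.66 and 3.10 ± 0.66 at 1, 3, 5 and 11 h.

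The ucp1 gene had 10.06 to 12.15 in mantle arrays at 1 h, 9.97 to 10.97 at 3 h, 10.10 to 10.64 at 5 h and 9.21 to 10.56 at 11 h. Its NF arrays ranged from 2.61 to 7.28 over the 4 times, the widest range of the 6 genes in NF cells after that of aplnra. Differences between mantle and NF cells were 5.89 ± 0.53, 5.04 ± 0.59, 4.99 ± 0.59 and 6.21 ± 0.59 at 1, 3, 5 and 11 h. The second probe set of aplnra averaged 6.84, 5.36, 6.25 and 6.20 in mantle arrays at 1, 3, 5 and 11 h. In NF arrays it averaged 2.72, 3.56, 2.59 and 2.52, so its means too were higher in mantle cells. At 3 h its ranges overlapped, with 4.87 to 5.89 in mantle and 2.35 to 4.97 in NF arrays.

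TSPAN1 was the exception among the 5 chosen genes. In mantle arrays it had 4.80, 6.21, 6.32 and 5.98 at 1 h, 1.77, 3.31, 1.81 and 3.73 at 3 h, 4.05, 5.09, 4.51 and 3.21 at 5 h, and 4.99, 4.89, 6.30 and 5.72 at 11 h. The treated NF arrays lay between 2.14 and 2.87 throughout. At 3 h the mantle arrays thus spread around the NF arrays, with 2 of them below and 2 above, while at the other times none of them met the NF range. On the deposited scale the 3 h mantle levels, 1.66 to 3.54, lay below the median of all probe sets in those arrays (3.81 to 3.86). Treated NF arrays, at 2.27 to 2.99, were below their medians of 3.86 to 4.01 too. The order among such low levels is therefore not read as a difference in expression.

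The difference in TSPAN1 between mantle and NF cells was 3.38 ± 0.33 at 1 h, 0.32 ± 0.37 at 3 h, 1.88 ± 0.37 at 5 h and 2.89 ± 0.37 at 11 h. The 95% interval at 3 h reaches from -0.42 to 1.05 and lies below the estimates of the other 3 times. The 3 h value was -0.04 when replicate 4 of the mantle cells at that time was left out. Averaged over the 4 times the difference was 2.12 ± 0.18.

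After copper alpl was not a gene of higher level in mantle cells. It had 6.55, 7.37, 6.26 and 6.27 in mantle arrays at 1 h, 4.73, 5.70, 5.45 and 5.84 at 3 h, 6.41, 6.20, 6.33 and 5.86 at 5 h, and 6.98, 4.84, 7.25 and 6.21 at 11 h. The NF arrays ranged from 5.86 to 7.13 at 1 h, 7.20 to 7.91 at 3 h, 6.24 to 6.79 at 5 h and 5.82 to 6.24 at 11 h. At 3 h every mantle array was below every NF array, and at the other times the populations overlapped. The difference at 3 h was -1.99 ± 0.35 (adjusted p = 5.78e-05, with the block 0.0345). The values at 1, 5 and 11 h were 0.15 ± 0.31, -0.42 ± 0.35 and 0.22 ± 0.35 with adjusted p of 0.379 to 0.727, and those at 1 h and 11 h were negative on the deposited scale (-0.17 and -0.02). As a mean of the 4 times alpl was lower by 0.51 on the log2 scale (SE 0.17, adjusted p = 0.0115), a call lost with the block (adjusted p = 0.179).

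**Figure D2:**
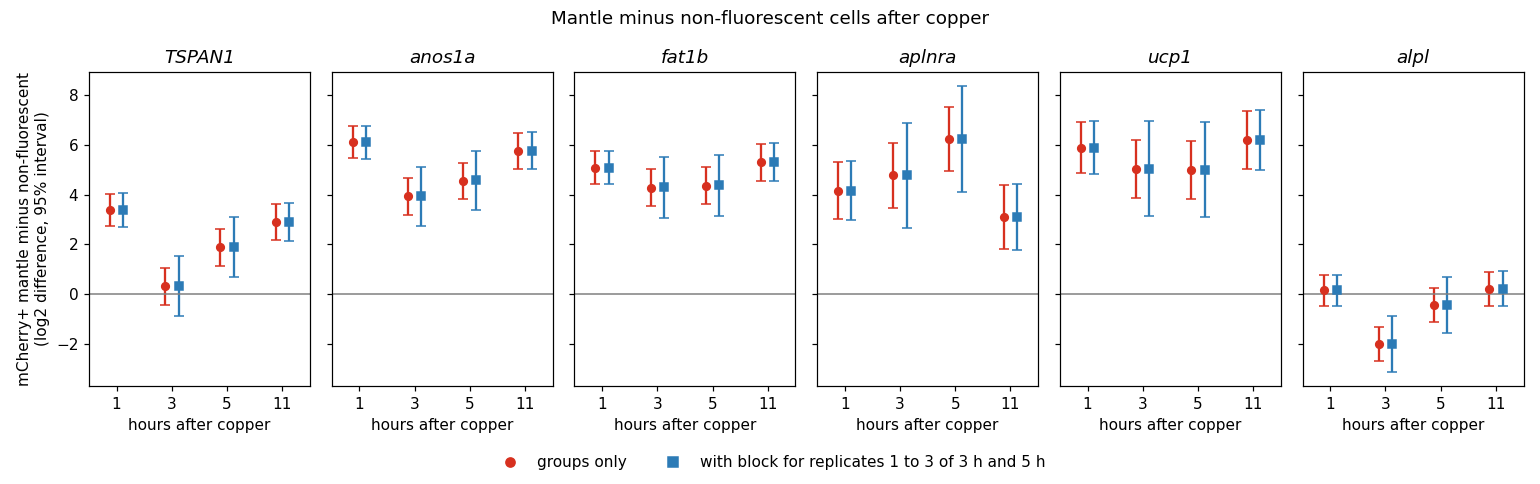
Difference between mCherry+ mantle and NF cells (log2, with 95% intervals) at 1, 3, 5 and 11 h after copper for each gene, from the groups alone (circles) and with the block for replicates 1 to 3 of 3 h and 5 h (squares). The interval of alpl at 3 h lies below 0. TSPAN1 has its smallest difference at 3 h. The 5 genes other than alpl were picked by how strongly they mark mantle sorts against NF cells. Their intervals are therefore a description and no test of a difference from 0.

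Within mantle cells the time course was tested against the 1 h group. For all genes but alpl, a fall from 1 h is favoured if the 1 h sorts took part in the choice. At 3 h, 2 of the 6 genes were called, both lower, where 10.7% of all genes were called in either direction. TSPAN1 differed between 3 h and 1 h by -3.17 ± 0.37 (adjusted p = 3.57e-06), or 0.111 of the 1 h level on the linear scale. Since its 3 h levels lay below the median of all probe sets, that fraction is only a rough one. It remained called with the block, at -3.14 ± 0.51 (adjusted p = 0.00318), where 0.706% of all genes were called. When any single array was left out the difference stayed between -3.53 and -2.88. The other called gene was alpl at -1.18 ± 0.35 (adjusted p = 0.0263). It lost that call with the block (adjusted p = 0.29), after quantile normalization (adjusted p = 0.0682) and without any one of 4 mantle arrays, replicates 1 and 2 at 1 h and replicates 1 and 3 at 3 h (highest adjusted p = 0.118).

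The remaining 4 genes did not pass at 3 h. They differed from 1 h by -0.99 ± 0.37 in anos1a (adjusted p = 0.0832), -0.69 ± 0.38 in fat1b, -0.24 ± 0.66 in aplnra and -0.27 ± 0.59 in ucp1. The second probe set of aplnra had a mean of 5.36 at 3 h and 6.84 at 1 h, a fall that was not tested. For anos1a the adjusted p was 0.0481 when replicate 3 of the mantle cells at 1 h was left out and 0.0493 with all 52 arrays in the fit. At 5 h TSPAN1 alone was called (10.3% of all genes), at -1.61 ± 0.37 (adjusted p = 0.00553), and this call was lost with the block (adjusted p = 0.154). At 11 h limma called 0 of the 19260 genes (0%; 1498 at an unadjusted p under 0.05), and TSPAN1 differed from 1 h by -0.35 ± 0.37. The other settings called 0 to 32 genes in that comparison.

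Marker lists moved over the same times. In mantle arrays the mean of 16 keratinocyte genes was 6.17 to 7.25 at 1 h, 7.26 to 8.78 at 3 h, 6.12 to 8.13 at 5 h and 6.76 to 7.27 at 11 h, and 5 of the 16 were called higher at 3 h than at 1 h and 0 lower (median 1.33, against 0.02 over all genes, of which 4.29% were called higher and 6.42% lower). The mean of 8 ionocyte genes was 4.52 to 4.97 at 1 h, 5.44 to 5.75 at 3 h, 5.16 to 5.66 at 5 h and 4.63 to 5.00 at 11 h, with 1 called higher at 3 h and 0 lower (median 0.45). Neuromast support and mantle genes averaged 6.93 to 7.20 at 1 h, 6.36 to 6.82 at 3 h, 6.88 to 7.26 at 5 h and 6.98 to 7.50 at 11 h, with 3 of 18 called lower at 3 h and 0 higher (median -0.46). After quantile normalization 0 of these 18 were called (median -0.29). With the block none of these marker genes was called at 3 h, at medians of 1.37, 0.48 and -0.42 in the order of the lists. The means of the skin lists were thus highest, and that of the neuromast list lowest, at the time at which TSPAN1 was lowest. Their part in the TSPAN1 values was not tested. At 3 h anos1a and fat1b were at least 7.11 in every mantle array, and their means too were lower than at 1 h, without a call. The part of the markers in those values was not tested either.

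**Figure D3:**
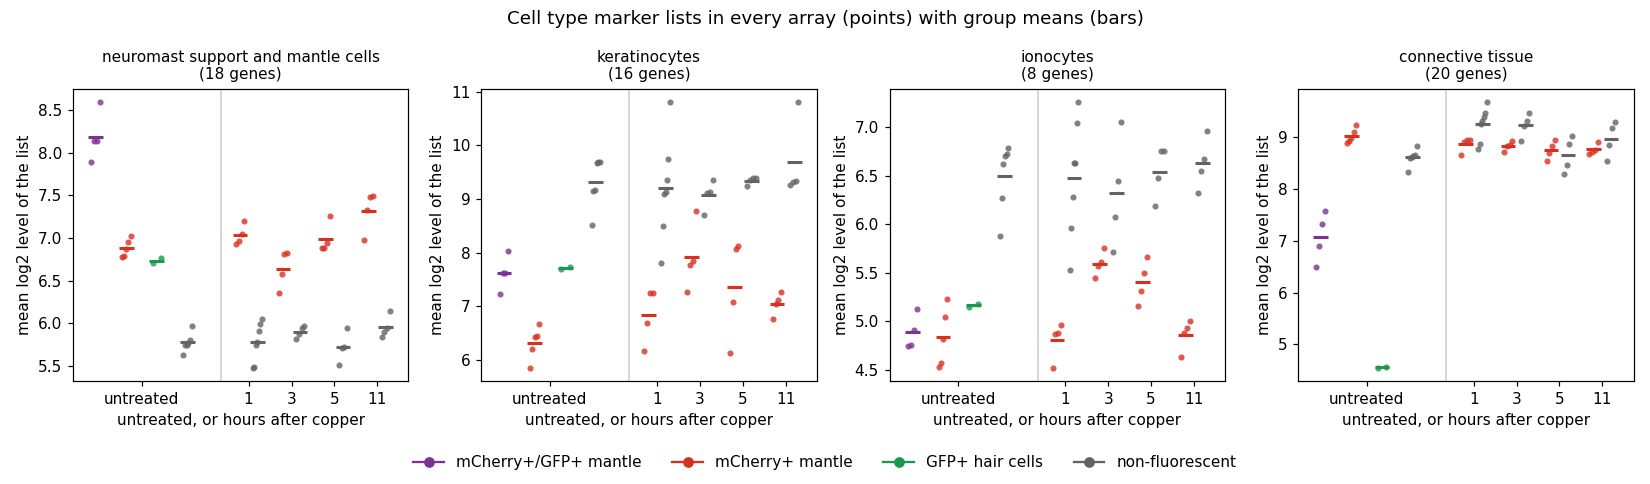
Mean log2 level of 4 cell type marker lists in every array (points) with group means (bars), untreated and by hours after copper. Keratinocyte and ionocyte means are higher in mCherry+ mantle arrays at 3 h than at 1 h, and the connective tissue mean is lower in untreated mCherry+/GFP+ arrays (6.48 to 7.57) than in mCherry+ arrays (8.89 to 9.24).

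In NF cells the same contrasts called other members. At 3 h against 1 h, 2 of the 6 were called (19.5% of all genes), both higher: anos1a by 1.20 ± 0.33 (adjusted p = 0.0096) and alpl by 0.96 ± 0.31 (adjusted p = 0.0267). The NF levels of anos1a were 4.39, 4.28, 4.98 and 5.17 at 3 h and 2.98 to 4.31 at 1 h, so the groups just met. On the deposited scale its 1 h NF levels, 3.25 to 4.51, lay on both sides of the medians of all probe sets in those arrays (3.86 to 4.00). The size of a rise from such low levels is only a rough one. At 5 h, 2 were called (17.6% of all genes), anos1a higher by 1.1 ± 0.33 (adjusted p = 0.0187) and aplnra at -1.79 ± 0.59 (adjusted p = 0.0316). The second probe set of aplnra averaged 2.59 at 5 h and 2.72 at 1 h. All 4 calls were lost with the block (adjusted p of 0.166 to 0.305), and without replicate 4 of the 3 h NF group none of the 6 was called at 3 h. Without replicate 2 or replicate 3 of the 5 h NF group none was called at 5 h. At 11 h none of the 6 was called (1.14% of all genes). Higher genes made up 57.5%, 57.8% and 60.7% of all calls at 3, 5 and 11 h, against 43% to 43.8% on the deposited scale.

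The test of a change that differs between the populations is the mantle change minus the NF change from 1 h. For all genes but alpl, a negative value is favoured if the 1 h sorts took part in the choice. At 3 h, 3 of the 6 genes were called, all with a negative difference, where 9.75% of all genes were called. They were TSPAN1 at -3.06 ± 0.50 (adjusted p = 0.000317), anos1a at -2.18 ± 0.49 (adjusted p = 0.00485) and alpl at -2.14 ± 0.47 (adjusted p = 0.0038). In NF cells TSPAN1 was low throughout, with means of 2.45 at 1 h and 2.34 at 3 h. A fall there could hardly show, so the TSPAN1 value restates the mantle change and cannot test a change particular to mantle cells. The anos1a value includes an NF rise from low 1 h levels, whose size is only a rough one. With the block the 3 values were nearly the same, which the mirror image of replicate 4 fixes in advance. The adjusted p were 0.0581 for TSPAN1, 0.174 for anos1a and 0.163 for alpl, so no call was left. At 5 h 1 gene was called (7.81% of all genes), anos1a at -1.55 ± 0.49 (adjusted p = 0.0483), which was lost with the block (adjusted p = 0.443) and on the deposited values (adjusted p = 0.0531). It was also lost without any one of 14 of the 19 arrays behind it, which in NF cells were replicates 3 to 7 at 1 h and 1 to 3 at 5 h, and in mantle cells replicates 1, 2 and 4 at 1 h and 1 to 3 at 5 h. At 11 h limma called 0 genes (0%; 1596 at an unadjusted p under 0.05), and other settings called 0 to 2.

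Set against untreated mCherry+ mantle cells, TSPAN1 in treated mantle cells differed by -0.44 ± 0.42 at 1 h, -3.61 ± 0.42 at 3 h, -2.05 ± 0.42 at 5 h and -0.80 ± 0.42 at 11 h. With the block the values were -1.23, -4.37, -2.81 and -1.58 at 1, 3, 5 and 11 h. In this fit the block also covers untreated replicates, so the values moved down at all 4 times. The mirror image was shown at 3 h and 5 h only and gives no ground for the grouping of untreated replicates. The other 4 chosen genes lay between -0.25 and 1.12 at the 4 times, the highest value being that of anos1a at 11 h. These untreated arrays took part in choosing the genes, so a fall from them is favoured by the choice and none of these values is a test. For alpl, which was tested, the 3 h level was lower (-1.39 ± 0.30, adjusted p = 0.00155), a call that was lost with the block (adjusted p = 0.256), and it was not called at 1, 5 or 11 h. Of all genes 1.18%, 14.5%, 12.2% and 3.45% were called at 1, 3, 5 and 11 h.

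Between treated and untreated NF cells, 4.98%, 19.2%, 11.7% and 3.21% of all genes were called at 1, 3, 5 and 11 h. At 3 h alpl was higher, by 1.13 ± 0.29 (adjusted p = 0.0057, with the block 0.213), its 4 arrays at 7.20 to 7.91 lying above 5.98 to 6.50 in untreated cells. It was not called at the other times. At 11 h aplnra had 7.52, 7.82, 5.02 and 6.78, against 2.80 to 5.09 in untreated NF cells. The difference was 2.77 ± 0.59, and 1.02 with both probe sets averaged. The second probe set alone had a mean of 2.52 at 11 h and 3.27 in untreated NF cells. The deposited medians of all probe sets were 3.89 to 3.95 and 3.69 to 3.74 in these arrays, in the same order. Both means are thus low, and no direction is read from them. With the probe set used, the ranges met at one array. Since low levels in untreated NF cells took part in choosing aplnra, the difference is no test. Of the calls of all genes, higher ones were 48.3%, 56.1%, 59.5% and 62.8% at 1, 3, 5 and 11 h, against 91.8%, 72.3%, 78.8% and 90.8% on the deposited scale. In mantle cells at 11 h the share was 66.6%, against 78.2% on the deposited scale.

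Over all 12 groups, the order of the means fell into blocks. TSPAN1 was highest in untreated mCherry+/GFP+ cells (9.79 ± 0.61, SD), followed by untreated mCherry+ cells (6.27 ± 1.03), mantle cells at 1 h (5.83 ± 0.70), at 11 h (5.47 ± 0.67) and at 5 h (4.22 ± 0.79). The ranges of neighbours overlapped from the second to the fifth of these, and below them hair cells (2.80 ± 0.30), mantle cells at 3 h (2.66 ± 1.01) and all 5 NF groups (2.33 to 2.59) overlapped in a row. For anos1a the untreated mCherry+/GFP+ cells (11.04 ± 0.12) stood alone, the 5 mCherry+ groups lay between 8.63 and 9.92 with overlapping neighbours, and hair cells and NF groups between 3.51 and 4.71. The order in fat1b was of the same kind, with 10.02 ± 0.25, then 7.59 to 8.37, then 3.07 to 4.12. In aplnra (9.24 to 9.89) and ucp1 (9.89 to 10.72) the 5 mCherry+ groups came first with overlapping neighbours. The untreated mCherry+/GFP+ cells followed in ucp1 (7.58 ± 0.93), and in aplnra they (6.16 ± 0.80) came after NF cells at 11 h (6.79 ± 1.25). No neighbours in the order of alpl were apart, from 7.65 ± 0.30 in mCherry+/GFP+ cells to 5.43 ± 0.49 in mantle cells at 3 h.

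The families and pathways of the 6 genes were described by lists of related genes, in mantle against NF cells as the mean of the 4 times after copper, where 38.7% of all genes were called higher and 19.5% lower and all genes had a median of 0.15. On the deposited scale these shares were 18.4% and 35.8%, and the median was -0.12. Of the 6 genes themselves, 5 were higher, as their choice favours, and 1, alpl, was lower. A list's counts near these shares are not a result about that list. The called genes named from each list for their size kept their call and direction on the deposited values, after quantile normalization and with the block, except enpp2. The added relatives anos1b, apln and fat1a were not run under these settings. On the deposited values every difference of this comparison is lower by 0.27.

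Of 37 measured tetraspanin genes 17 were higher and 11 lower, with a median of 0.11 that turned to -0.16 on the deposited scale (10 higher, 16 lower) and to -0.05 after quantile normalization. The 4 largest differences were increases in tspan11 (3.70 ± 0.17), tspan18b (3.00 ± 0.16), tspan9b (2.40 ± 0.17) and cd82b (2.11 ± 0.10), all called in limma (adjusted p from 3.09e-18 to 1.09e-13). In mantle cells tspan11 differed between 3 h and 1 h by 0.00 ± 0.35, against -3.17 ± 0.37 in TSPAN1, and the difference between the 2 genes was not tested. It was at 9.94 ± 0.29 (SD) in untreated mCherry+/GFP+ cells and 8.12 ± 0.26 in mCherry+ cells, against 5.38 ± 0.72 in NF cells.

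Genes of the anosmin family and its Fgf receptor partners were higher in 10 and lower in 3 of 18, with a median of 0.38 (0.11 on the deposited scale, with 8 higher and 6 lower). The ligand genes fgf10a (3.34 ± 0.15) and fgf3 (2.16 ± 0.16) were higher, as was ndst1a (1.61 ± 0.14), which encodes an enzyme that sulphates heparan. The receptor gene fgfr3 was lower by 3.46 on the log2 scale (SE 0.16), while the paralog of the member gene, anos1b, was at 0.02 ± 0.19 and not called (adjusted p = 0.926). In mantle cells at 3 h, fgf3 (-1.23 ± 0.33, adjusted p = 0.0133) and ndst1a (-1.08 ± 0.28, adjusted p = 0.0112) were lower than at 1 h, calls that were lost with the block (adjusted p = 0.218 and 0.209). Both were named for higher levels in mantle cells at times that include 1 h, so their choice favours a fall from 1 h. In that comparison 0 of the 18 genes were called higher and 4 lower, against 4.29% and 6.42% of all genes.

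In the list of Fat, Dachsous and Hippo genes 10 were higher and 6 lower of 26 (median 0.17, on the deposited scale -0.10 with 8 higher and 10 lower). Higher were mob1ba (1.51 ± 0.20), a partner of Hippo kinases, dchs1b (1.28 ± 0.12), a protocadherin that binds Fat cadherins, and ccn1 (1.17 ± 0.16), a secreted matrix protein. The kinase gene lats1 was lower by 1.22 on the log2 scale (SE 0.11). The paralog fat1a was higher by 0.90 ± 0.13 (adjusted p = 5.54e-07), and fat1b itself by 4.76 ± 0.18 as the mean of the 4 times.

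The apelin pathway had 5 higher and 2 lower of 12 (median 0.07, on the deposited scale -0.20 with 4 higher and 5 lower). The second apelin receptor gene, aplnrb, was lower, while the mean difference of aplnra was 4.57 ± 0.32. It was at -2.46 ± 0.23 in mantle against NF cells after copper (adjusted p = 1.31e-10), and in untreated cells it averaged 2.86 ± 0.16 (SD) in mCherry+/GFP+ and 3.61 ± 0.06 in mCherry+ cells, against 5.56 ± 0.38 in NF cells. The ligand gene apln was at -0.09 ± 0.13 and not called. The other named genes, taken for the size of their difference, were the G protein genes gnai2b (1.18 ± 0.17) and gnai1 (0.91 ± 0.15) and the arrestin gene arrb2b (0.83 ± 0.13), each of them higher.

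Among uncoupling proteins and their regulators 3 were higher and 5 lower of 9 (median -0.47, with 1 higher and 5 lower on the deposited scale). The relative ucp2 was higher by 2.16 ± 0.13, at 10.11 ± 0.18 (SD) in untreated mCherry+ cells against 7.77 ± 0.15 in NF cells. Also named for their size were prdm16 at -2.81 ± 0.19, ppargc1b at -1.44 ± 0.14 and ppargc1a at -1.05 ± 0.19, which encode regulators known from mammalian brown fat and were each lower. In the list of alkaline phosphatases and pyrophosphate handling 5 were higher and 2 lower of 13 (median 0.32, on the deposited scale 0.05 with 3 higher and 5 lower). The enzyme enpp1, which makes pyrophosphate, was higher by 3.76 ± 0.15 (adjusted p = 8.77e-20), with 8.80 ± 0.54 (SD) in untreated mCherry+/GFP+ and 9.12 ± 0.11 in mCherry+ cells, against 5.41 ± 0.72 in NF cells. Also higher were pdxka (1.07 ± 0.21), a kinase of vitamin B6, and enpp2 (0.85 ± 0.20), which was not called with the block (adjusted p = 0.0541). The phosphatase gene phospho1 was lower by 1.48 on the log2 scale (SE 0.23).

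For each gene the most similar genes were found by Pearson's r of the 12 group means. These correlations share arrays, array scaling and the contrast that chose the genes, so they are a description. The closest to anos1a were fat1b (r = 0.9912), lrrc4cb (0.9907) and pcdh12 (0.9898), and to fat1b they were igsf3 (0.9924), anos1a (0.9912) and lrrc4cb (0.9900). Closest to ucp1 were adgrg6 (0.9929), csgalnact1a (0.991) and bcl7a (0.989), and to aplnra kdelr3 (0.9787), spry4 (0.9729) and msx2b (0.9717). TSPAN1 had map3k21 (0.9485), tnfsf10l3 (0.9484) and creb5b (0.9481), and alpl had gnal (0.8926), wdr33 (0.8686) and senp5 (0.8574).

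Of these 18 places, the genes stayed among the 10 closest over all 52 single arrays for anos1a with fat1b and pcdh12, fat1b with anos1a, ucp1 with adgrg6 and TSPAN1 with creb5b. Between members, r over the group means was 0.9912 for anos1a and fat1b and 0.8899 for aplnra and ucp1, and 0.4274 for TSPAN1 and aplnra. After group means were subtracted, anos1a and fat1b still varied together over the 52 arrays (r = 0.7128), while for TSPAN1 and anos1a r was -0.03 and for aplnra and ucp1 0.26.

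**Figure D4:**
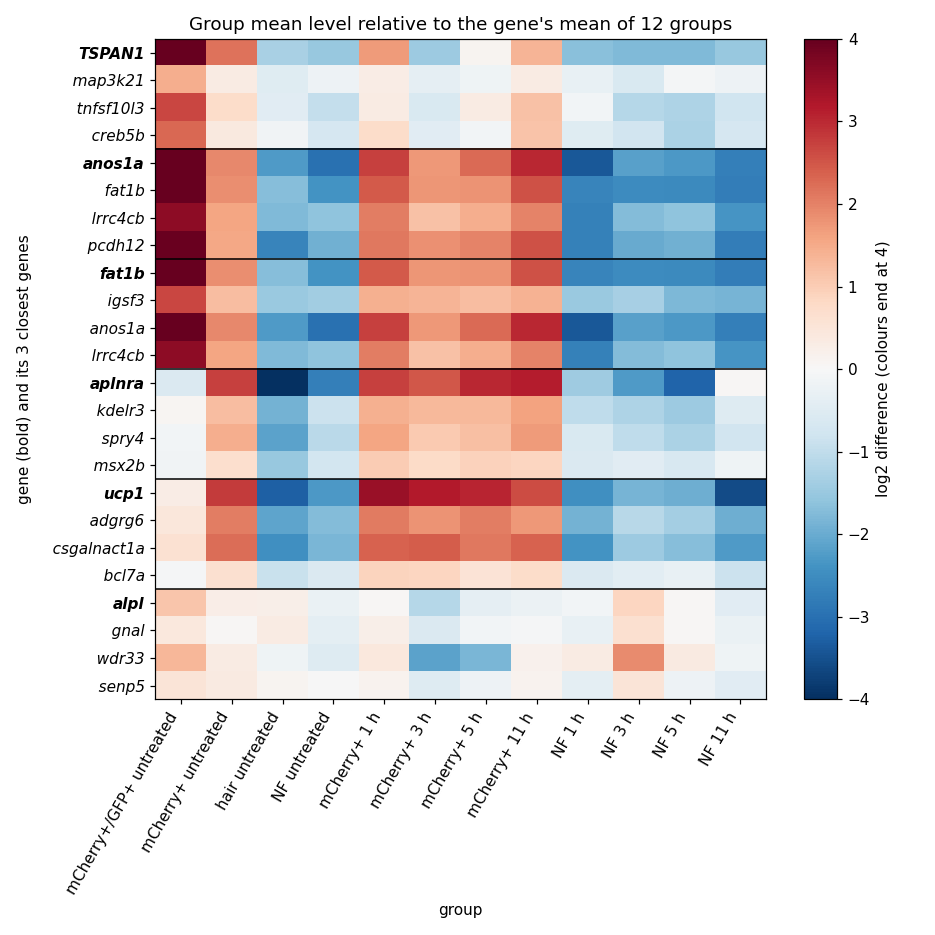
Group mean of each of the 6 genes (bold) and its 3 closest genes, as log2 difference from the mean of the 12 groups (colours end at 4). The rows of TSPAN1, anos1a and fat1b are highest in the first column, untreated mCherry+/GFP+ cells, and those of aplnra and ucp1 in the columns of mCherry+ cells.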

How the data were processed

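Skin cells of zebrafish larvae were sorted by fluorescence, and RNA amplified from about 1 ng was hybridised to 52 arrays with 75212 probe sets. The authors deposited log2 values made by RMA in Partek 6.6, per the submitters' processing notes. The log base is not given in the sources used here and was inferred from the range of the values (-1.29 to 15.05). Per the labels' protocols and series text, a few arrays were dropped by the authors after principal component analysis, and the copper arrays were imported separately. RMA removes background, so signal over background was not used. Replicates are separate samples in the labels, and where nothing says that they came from separate larvae, p-values measure only the spread between these samples.

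Probe sets were named from the platform's table (20806 with 1 symbol, 855 with several, 53551 with none), which can be old, and the probe set with the highest mean stood for each of 19260 genes. Of the 6 genes, 5 have an Entrez ID found in RefSeq with the same symbol, and TSPAN1 has none, so its zebrafish gene was not checked further. Each array was shifted so that its median of these genes was equal (4.835). limma 3.58.1 (R 4.3.3) was fitted by group with eBayes in 3 sets, which were 17 untreated arrays, 35 treated arrays, and 42 arrays of NF and mCherry+ cells for treated against untreated. P-values were adjusted by Benjamini-Hochberg over all 19260 genes, and a call is an adjusted p below 0.05. Alternatives were the deposited values, quantile normalization, a replicate block, the block for replicates 1 to 3 of 3 h and 5 h (in the untreated arrays, NF replicates 5 and 6 with mCherry+ replicates 1 and 2, and NF replicate 1 with mCherry+ replicates 3 and 4), all 52 arrays in one fit, eBayes with trend and robust settings, the mean of a gene's probe sets, genes below the 25th percentile left out, an adjusted p below 0.01, and leaving out each array. The fit was tested on simulated data with independent noise. These lack the tie between the arrays of 3 h and 5 h, so they are no check of the p-values of those times.

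The 6 genes, the gene lists and the tests were chosen with earlier results of these data known. From each list the text names the 4 called genes of largest difference in mantle against NF cells over the 4 times, with their relatives anos1b, apln and fat1a added after their values were seen, and for each member the 3 genes of highest r over the 12 group means. The rule does not say whether treated sorts counted, so differences of its 5 genes between mantle and NF cells after copper, and between treated and untreated cells, are given without their tests. Counts of calls among the 6 genes in these comparisons include the 5 and are no test of them. Their tests against 1 h are kept, with the limit that the choice favours a fall if the 1 h sorts counted. Deviations of same-numbered mCherry+ and NF samples correlated above 0.1 in 4 of 5 untreated pairs (r from -0.0762 to 0.34) and in 2 of 16 treated pairs (r from -0.0585 to 0.148). Since not every pair did so in either set, the numbers were not taken to pair the samples.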

Additional observations from a re-analysis of the deposited data

Results flagged for a closer look

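The TSPAN1 level of replicate 3 of the untreated mCherry+ cells was 4.501, while the other 4 arrays of that group had 6.33 to 7.06, so it stood far from the rest. The alpl level of replicate 2 of the NF cells at 3 h was 7.911, against 7.20 to 7.31 in the other 3 arrays. These are 2 of 66 groups of levels looked at in this way, and chance flags about 1 in 20.

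The change from 1 h differed between mCherry+ mantle and NF cells in 4 tests of the difference itself, in limma. For TSPAN1 and anos1a the choice of the genes may favour a negative value. In NF cells TSPAN1 was too low for a fall to show, so its difference restates the mantle change. At 3 h the difference of changes was -3.059 in TSPAN1 (adjusted p = 0.000317, with the block 0.0581), -2.183 in anos1a (adjusted p = 0.00485, with the block 0.174) and -2.144 in alpl (adjusted p = 0.0038, with the block 0.163). At 5 h it was -1.545 in anos1a (adjusted p = 0.0483, with the block 0.443).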

How the results depend on the processing

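The lower TSPAN1 level in mantle cells at 3 h than at 1 h kept its direction and its call under every alternative run. Counts that involve untreated cells include genes chosen on them and are given for completeness. In these counts, here and in the paragraphs below, a call of any gene but alpl is no test. The block for replicates 1 to 3 of 3 h and 5 h moved most: 51 of 68 values of single genes were unchanged with it, 15 lost a call and 2 moved. Unchanged means the same direction and the same status, called or not called. For the 5 chosen genes in untreated cells, which carry no test, it means the same direction and a shift below 1 SD. With the block TSPAN1 was the 1 of the 6 genes called in mantle cells at 3 h against 1 h and against untreated cells. At 5 h 0 were called in mantle cells against either, and 0 in NF cells at 3 h and 5 h against 1 h, in the mantle minus NF changes of 3 h and 5 h, and in NF cells at 3 h against untreated cells. Counts of all genes fell to 1134 at 3 h and 1405 at 5 h between mantle and NF cells with the block, against 5834 and 6234 without it, and for the mean of the 4 times to 5966, against 11217. Against 1 h the block left 136 and 83 genes in mantle cells at 3 h and 5 h (2062 and 1990 without it), 431, 342 and 41 in NF cells at 3, 5 and 11 h (3750, 3388 and 219), and 24 and 14 in the difference of changes (1878 and 1504). Against untreated cells it left 3, 53, 5 and 11 at 1, 3, 5 and 11 h in mantle cells (228, 2795, 2344 and 665) and 273, 240, 63 and 126 in NF cells (959, 3695, 2248 and 618), and between the untreated mantle populations 2631 (5063). Among treated arrays at 3 h and 5 h the block left the differences nearly the same and made their SE larger, which lowers the number of calls. The cause of the other losses was not tested. In fits with untreated arrays the block also covers untreated replicates, for which the mirror image gives no ground.

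On the deposited values alpl turned to -0.1675 at 1 h and -0.01569 at 11 h in mantle against NF cells, and after quantile normalization to -0.03375 at 1 h, with adjusted p of 0.728, 0.982 and 0.947. The deposited values called 1 of the 6 genes (anos1a) in mantle cells at 11 h against untreated cells, 1 (aplnra) in NF cells at 1 h and 2 (anos1a and alpl) at 3 h, where the values with equal medians called 0, 0 and 1, and 0 in the difference of changes at 5 h. Quantile normalization called 1 in mantle cells at 3 h against 1 h and 0 in that difference. The trend and robust setting called 0 in it too. With all 52 arrays in one fit, and with dim genes left out, 1 (anos1a) was called in mantle cells at 11 h against untreated cells. Averaging the probe sets of aplnra left 1 call in NF cells at 5 h against 1 h and 0 at 11 h against untreated cells. An adjusted p below 0.01 left 1 call in mantle cells and 1 in NF cells at 3 h against 1 h, 0 in NF cells at 5 h and 0 in the difference at 5 h. It lowered most counts of all genes by more than 1.5 times, which follows from the threshold. Counts of all genes in NF cells against untreated cells were 2202 at 1 h and 1673 at 11 h on the deposited values, 609 at 1 h with dim genes left out, and in mantle cells at 1 h 139 after quantile normalization. In NF cells at 11 h against 1 h they were 454 with all 52 arrays and 138 with dim genes left out.

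Leaving out 1 array at a time gave 823 values of single genes, of which 784 kept their direction and call, 33 lost a call, 1 gained one and 5 changed sign, none of them called. Mantle minus NF ranged from -0.1002 to 0.2696 for alpl at 1 h, from -0.0866 to 0.7177 at 11 h, and from -0.04157 to 0.6119 for TSPAN1 at 3 h. The mantle change at 3 h ranged from -0.4877 to 0.1241 for aplnra and from -0.4913 to 0.2071 for ucp1. The number of the 6 genes called ranged from 1 to 3 in mantle cells at 3 h against 1 h, from 0 to 2 in NF cells at 3 h and at 5 h, from 0 to 1 in the difference of changes at 5 h, and from 0 to 1 in mantle cells and 1 to 2 in NF cells at 11 h against untreated cells. Counts of all genes in NF cells at 11 h against 1 h ranged from 48 (without NF replicate 2 at 11 h) to 347 (without NF replicate 7 at 1 h), and those at 5 h were 2131 without NF replicate 3 of that time and, in mantle cells, 1306 without mantle replicate 4. Against untreated cells they ranged from 69 to 213 in mantle cells at 1 h (lowest without treated replicate 4), 1496 to 2050 at 5 h (treated replicate 4) and 292 to 638 at 11 h (treated replicate 1), and in NF cells they were 1167 without treated replicate 7 at 1 h, 623 without treated replicate 5 and fewer still without untreated replicate 4, and ranged from 1449 to 2092 at 5 h (treated replicate 3) and 278 to 749 at 11 h (treated replicate 1). The replicate numbers were not taken to pair the samples, and a replicate block, with a consensus correlation of 0.0506 in the treated arrays, changed no call of the 68 values.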
